A study of Mus musculus with 18 samples.

Results

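The 43 genes described here act in mitosis, in building the spindle and in dividing the cell. They were listed by name: proliferation markers, cyclins with Cdk1 and its activating phosphatases, mitotic kinases, checkpoint proteins, kinesins, kinetochore and centromere proteins, the chromosomal passenger complex, anaphase regulators, spindle proteins, cytokinesis proteins and transcription factors. All 43 were represented among the 22911 gene symbols of the array, and all 43 passed the filter on dim probes. They are 43 of the 33455 features tested, of which 18014 carry a gene symbol. The brightest probe of a gene stood for it.

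ERBOE mice, which by their labels overexpress oestrogen receptor beta, were set against PRCre/+ controls in 3 kinds of tissue: uterus, eutopic endometrium and ectopic lesions. PRCre is a line that expresses Cre recombinase from the progesterone receptor gene, and the labels name no further allele of the ERBOE mice. The 6 groups were ERBOE and PRCre uterus (12 weeks old, no surgery), ERBOE and PRCre eutopic endometrium, and ERBOE and PRCre ectopic lesions, with 3 arrays each. Lesions grew from 1 endometrial fragment, punched at 2 mm from a mouse aged 8 weeks and of either genotype, in intact wild-type C57BL/6J hosts aged 8 weeks, so they can hold cells of both fragment and host. Hosts of the ERBOE or PRCre genotype, operated at 8 weeks of age, gave the eutopic endometrium and carried a wild-type C57BL/6J implant. Lesions and eutopic endometrium were taken at estrus 4 weeks after surgery, and uterus was taken at estrus. Each array carried RNA pooled from 3 animals, so p-values here measure the spread between pools. For each gene that spread was shared by the 6 groups, although the groups differed in it. Over the mitosis genes the median SD within a group was 1.57 log2 units in ERBOE and 1.23 in PRCre eutopic endometrium. In the same order it was 0.75 and 0.67 in uterus, and 0.50 and 0.47 in lesions. A p-value in lesions thus also carries eutopic scatter, and one in eutopic endometrium rests on a spread narrowed by the other groups. The labels of the ERBOE lesion and eutopic arrays call the mice free of endometriosis in 1 field, against their titles, and the study's account of the eutopic samples names lesions as harvested. The titles were followed.

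Genes of this kind are transcribed mainly in dividing cells, with most of them peaking between the end of DNA synthesis and mitosis. Their promoters are known for binding the DREAM and B-Myb–MuvB complexes at an element called CHR, often with CCAAT boxes bound by NF-Y, and FOXM1 joins these complexes late in the cycle. In the uterus, oestrogen is known to drive epithelial division, and most uterine cells are otherwise at rest.

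Promoters of the genes are shown because the members moved together across arrays, as described further on, and because these 2 motifs are the textbook elements of the class. RefSeq windows on GRCm38.p6, each 250 bases before and 50 bases after the start of the gene, matched 35 of the 43 genes. The 8 without an entry were Ccna2, Cdc25c, Aurkb, Kif20a, Spc24, Incenp, Tpx2 and Foxm1. A CHR was searched as TTTGAA and as TTCAAA, its reverse complement, and a CCAAT box as CCAAT and as ATTGG. A CHR and a CCAAT box can share at most 1 letter, and boxes on opposite strands at most 2. At least 1 CHR stood in 25 of the 35 promoters (71.4%), against 18.1% of the 27025 genes in the table. At least 1 CCAAT box stood in 26 of the 35 (74.3%), against 37.9% of all. Both stood in 22 of 35 (62.9%), against 7.12% of all, and 6 of the 35 had neither motif. These matches describe letters and do not show binding. In the windows below capitals mark the motifs and the strand is that of the gene, which is the minus strand for all shown except Birc5. Mki67 (chr7:135716330-135716629), Top2a (chr11:99024140-99024439), Ccnb1 (chr13:100786437-100786736), Ccnb2 (chr9:70421505-70421804) and Cdk1 (chr10:69352863-69353162) were taken as proliferation, cyclin and Cdk1 genes with a motif. Birc5 (chr11:117848987-117849286) stands for the 6 with neither, and the others of these were Mad2l1, Nuf2, Pttg1, Nusap1 and Mybl2.
Mki67: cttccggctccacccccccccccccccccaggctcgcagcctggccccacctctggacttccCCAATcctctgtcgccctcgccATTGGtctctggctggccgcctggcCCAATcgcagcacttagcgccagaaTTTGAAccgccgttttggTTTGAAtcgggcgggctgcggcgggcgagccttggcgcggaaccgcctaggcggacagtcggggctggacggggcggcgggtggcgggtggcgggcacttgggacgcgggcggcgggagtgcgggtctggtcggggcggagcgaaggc
Top2a: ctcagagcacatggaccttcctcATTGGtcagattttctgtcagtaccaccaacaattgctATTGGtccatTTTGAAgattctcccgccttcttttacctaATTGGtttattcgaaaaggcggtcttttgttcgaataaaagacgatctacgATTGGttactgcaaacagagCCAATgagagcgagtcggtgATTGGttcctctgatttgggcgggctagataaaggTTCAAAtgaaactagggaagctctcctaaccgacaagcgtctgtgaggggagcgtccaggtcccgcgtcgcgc
Ccnb1: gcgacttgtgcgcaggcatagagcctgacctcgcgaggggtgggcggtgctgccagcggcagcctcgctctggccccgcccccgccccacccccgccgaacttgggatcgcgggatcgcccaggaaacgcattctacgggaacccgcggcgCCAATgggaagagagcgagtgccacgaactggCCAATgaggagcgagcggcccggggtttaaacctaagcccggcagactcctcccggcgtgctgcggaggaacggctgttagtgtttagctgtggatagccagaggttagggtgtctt
Ccnb2: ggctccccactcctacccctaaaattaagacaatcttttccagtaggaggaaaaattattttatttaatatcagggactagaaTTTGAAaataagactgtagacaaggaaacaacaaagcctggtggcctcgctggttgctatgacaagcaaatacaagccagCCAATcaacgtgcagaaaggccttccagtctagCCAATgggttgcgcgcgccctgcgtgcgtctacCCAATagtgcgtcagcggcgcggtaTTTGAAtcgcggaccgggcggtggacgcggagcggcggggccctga
Cdk1: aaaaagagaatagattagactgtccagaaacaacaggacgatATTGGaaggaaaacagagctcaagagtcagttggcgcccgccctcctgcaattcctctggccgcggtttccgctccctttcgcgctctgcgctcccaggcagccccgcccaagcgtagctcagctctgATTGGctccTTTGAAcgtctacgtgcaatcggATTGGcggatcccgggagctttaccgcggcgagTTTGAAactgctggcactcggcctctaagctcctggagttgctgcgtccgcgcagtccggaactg
Birc5: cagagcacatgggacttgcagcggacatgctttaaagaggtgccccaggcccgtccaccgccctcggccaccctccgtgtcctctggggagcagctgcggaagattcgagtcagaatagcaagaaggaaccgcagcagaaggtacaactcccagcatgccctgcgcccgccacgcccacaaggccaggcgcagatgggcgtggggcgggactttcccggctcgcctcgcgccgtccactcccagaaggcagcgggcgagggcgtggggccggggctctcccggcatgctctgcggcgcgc
Cdk1, Mki67 and Ccnb2 had 2 CHR and 3 CCAAT motifs each. Top2a had 2 CHR and 6 CCAAT motifs, and Ccnb1 had 2 CCAAT boxes and no match to the CHR letters searched. Other forms of a CHR were not searched for.

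The 75th percentile of the signal was 237.3 intensity units on PRCre uterus array 1 and between 451.4 and 740.0 on the other 17 arrays. The share of spots well above background lay between 55.3% and 74.2%, with 0 saturated spots. The array headers place the arrays on 3 slides. All 3 uterus arrays of each genotype were spread over the 3 slides, eutopic arrays were missing from slide 1 and PRCre lesion arrays from slide 3. The bright probe of Esr2, the gene of oestrogen receptor beta, read 2.41 to 2.56 log2 units in ERBOE uterus, against 2.54 to 2.83 in PRCre uterus. In lesions it read 2.09 to 2.39 in ERBOE, against 2.39 to 2.52 in PRCre. Neither genotype difference passed (adjusted p = 0.712 and 0.994 by limma). A dimmer Esr2 probe was detected on 1 of 18 arrays. No source used here says whether these probes read the transcript of the ERBOE allele, and they do not check the genotype labels. Epithelial, stromal and smooth muscle markers were well above background on at least 1 array of every group.

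Levels below are log2 units above or below the 75th percentile of the array, where a difference of 1 is a doubling. A level of the group of genes is the median of the 43. It was 0.19, 0.59 and 1.56 on the ERBOE uterus arrays, against -0.86, -0.94 and -0.54 on the PRCre uterus arrays. In lesions it was 0.41, 0.82 and 0.21 on the ERBOE arrays, against -0.34, -0.72 and -0.04 on the PRCre arrays. In eutopic endometrium it was -1.82, -0.90 and 0.95 on the ERBOE arrays, against -1.85, -1.77 and -0.01 on the PRCre arrays. All ERBOE arrays lay above all PRCre arrays in uterus and in lesions, while the eutopic groups overlapped over most of their range. The order of the group means was ERBOE uterus (0.78 ± 0.70), ERBOE lesions (0.48 ± 0.31), PRCre lesions (-0.37 ± 0.34), ERBOE eutopic (-0.59 ± 1.41), PRCre uterus (-0.78 ± 0.21) and PRCre eutopic (-1.21 ± 1.04; SD, n = 3 each). Neighbours in that order differed by less than the larger of their 2 spreads, except ERBOE and PRCre lesions. A bulk sample with fewer dividing cells and one with less of this RNA per cell cannot be told apart.

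**Figure D1:**
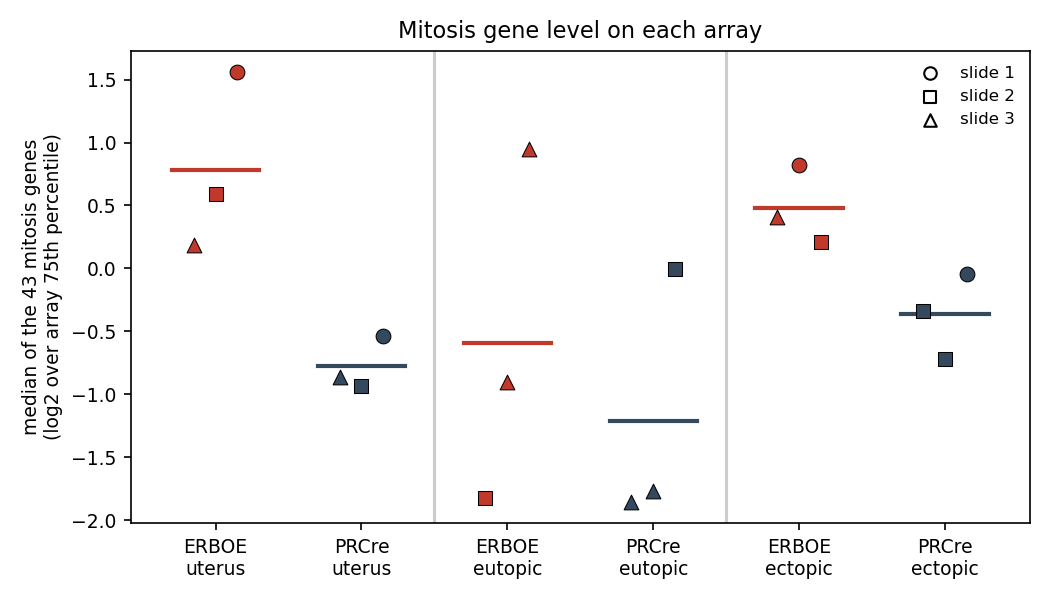
Median of the 43 mitosis genes on each of the 18 arrays, in log2 units relative to the array's 75th percentile, by group. Points are arrays, their shape gives the slide, and lines are group means over 3 arrays. ERBOE uterus arrays span 0.19 to 1.56 and PRCre uterus arrays -0.94 to -0.54, whereas the eutopic groups span -1.82 to 0.95 and -1.85 to -0.01.

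Single arrays set much of this spread. ERBOE uterus array 3 gave the highest value of all 18 arrays for 39 of the 43 genes, and PRCre eutopic array 1 the lowest for 23. Both of the uterus groups and both lesion groups had 1 array on slide 1, and that array was the highest of its group for 42 genes in ERBOE uterus, 34 in PRCre uterus, 40 in ERBOE lesions and 36 in PRCre lesions. In eutopic endometrium array 3 was the highest of its group for 41 genes in ERBOE and 40 in PRCre, and these arrays lay on slides 3 and 2. The part of the slide in these levels was not tested beyond the slide block and within-slide values given with the comparisons.

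In uterus the mitosis genes read higher in ERBOE than in PRCre, by a median of 1.63 log2 units over the 43 genes. Over all features tested the median difference was -0.12. The difference was above 0 for 42 of the 43 genes, and Pttg1 was the exception. No gene passed the test at an adjusted p of 0.05, nor did any of the 33455 features (0.0%). At an unadjusted p under 0.05, 21 of the 43 were higher and 0 lower, against 4.1% of all features higher. For 26 of the 43 every ERBOE array lay above every PRCre array, against 6.05% of all features. Because the 43 genes moved together across arrays, the counts here and in the comparisons below are not of independent observations.

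Mki67 encodes the Ki-67 protein that coats mitotic chromosomes and is the usual marker of dividing cells. It read 2.03, 2.58 and 3.67 on the ERBOE uterus arrays, against 0.65, 1.19 and 1.98 on the PRCre uterus arrays. Top2a, the topoisomerase that untangles sister chromatids, read 0.80, 1.71 and 3.01 on the ERBOE uterus arrays, against -0.86, 0.09 and 1.22 on the PRCre uterus arrays. The Mki67 groups did not overlap, with a difference of 1.49 ± 0.79 (log2 difference ± SE of limma here and below), and PRCre array 3 reached into the ERBOE range for Top2a (1.69 ± 0.86).

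Cdk1 is the kinase that drives entry into mitosis, and the B-type cyclins Ccnb1 and Ccnb2 are its partners. Cdk1 read -1.28, -0.68 and 0.49 on the ERBOE uterus arrays, against -1.74, -2.14 and -1.49 on the PRCre uterus arrays. Ccnb1 read 0.48, 1.26 and 2.22 on the ERBOE uterus arrays, against -1.32, -0.77 and 0.11 on the PRCre uterus arrays, and Ccnb2 read 1.75, 2.22 and 2.83 on the ERBOE uterus arrays, against 0.34, 0.13 and 1.38 on the PRCre uterus arrays. All 3 genes kept the groups apart, with differences of 1.30 ± 0.78, 1.98 ± 0.80 and 1.65 ± 0.76. Ccna2, the cyclin that acts from DNA synthesis to early mitosis, read 0.45, 1.26 and 2.05 on the ERBOE uterus arrays, against -0.86, -0.61 and 0.51 on the PRCre uterus arrays, so that PRCre array 3 overlapped ERBOE array 1 (1.58 ± 0.79). Of the phosphatases that activate Cdk1, Cdc25c differed by 1.71 ± 0.76 and Cdc25b by 0.41 ± 0.24.

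The mitotic kinases held the member with the smallest p of the list. Plk1, a kinase of spindle assembly and mitotic entry, read 1.15, 2.00 and 3.08 on the ERBOE uterus arrays, against -1.05, -0.30 and 0.49 on the PRCre uterus arrays. Its difference was 2.37 ± 0.74 (unadjusted p = 0.00649, adjusted p = 0.391 by limma), and its lowest ERBOE array stood above its highest PRCre array. Aurka, the kinase of centrosomes and spindle poles, read 1.28, 1.51 and 2.59 on the ERBOE uterus arrays, against -0.61, -0.30 and 0.66 on the PRCre uterus arrays, a difference of 1.88 ± 0.68. Aurkb, the kinase of the passenger complex, read -2.69, -1.98 and -0.60 on the ERBOE uterus arrays, against -4.14, -3.46 and -2.67 on the PRCre uterus arrays. It was well above background on 16 of 18 arrays and on 2 of 3 PRCre uterus arrays. ERBOE array 1 lay just below PRCre array 3 (1.67 ± 0.73). The other members of the passenger complex anchor that kinase to chromosomes. Birc5, known as survivin, read 2.27, 3.16 and 3.77 on the ERBOE uterus arrays, against 1.37, 1.17 and 2.21 on the PRCre uterus arrays (1.48 ± 0.74). Incenp differed by 1.58 ± 0.53 and Cdca8, known as borealin, by 1.93 ± 0.67. All 3 kept the groups apart.

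The checkpoint proteins, which delay anaphase until chromosomes are attached, had the lowest median difference among roles with more than 2 members, 0.96 over 4 genes. Bub1, a checkpoint kinase of kinetochores, read -1.86, -1.05 and 0.15 on the ERBOE uterus arrays, against -2.62, -3.11 and -1.79 on the PRCre uterus arrays (1.58 ± 0.85). Mad2l1, the inhibitor of the anaphase activator Cdc20, read 0.98, 1.76 and 2.06 on the ERBOE uterus arrays, against 1.02, 0.45 and 0.41 on the PRCre uterus arrays (0.97 ± 0.57). Ttk, the kinase that starts the checkpoint signal, read -3.01, -1.97 and -1.01 on the ERBOE uterus arrays, against -3.50, -3.64 and -0.73 on the PRCre uterus arrays. PRCre array 3 lay inside the ERBOE range for Bub1 and above it for Ttk, and PRCre array 1 lay inside it for Mad2l1. The dimmer Ttk probes read -4.84 and -6.30 on PRCre uterus array 3 and gave uterine differences of 1.22 and 1.10. These probes were well above background on 5 and 3 of 18 arrays. Ttk differed by 0.63 ± 0.90 on its bright probe and Bub1b by 0.96 ± 0.49. At an unadjusted p under 0.05, 0 of the 4 checkpoint genes were higher, against 4.1% of all features. With 4 genes this count does not set the role apart from all features.

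Among the kinesins, Kif11 pushes spindle poles apart, and it read -2.93, -2.50 and -1.24 on the ERBOE uterus arrays, against -3.46, -2.14 and -2.46 on the PRCre uterus arrays. That was a difference of 0.46 ± 0.69, the smallest of the 5 kinesins, with 15 of 18 arrays and 2 of 3 PRCre uterus arrays well above background. Kif20a, a motor of the central spindle, read 0.19, 0.67 and 1.59 on the ERBOE uterus arrays, against -2.34, -0.94 and -0.20 on the PRCre uterus arrays (1.98 ± 0.76). Kif4, a motor on chromosome arms, differed by 2.34 ± 0.84, and Kif23 of the central spindle by 1.56 ± 0.75. Both were well above background on 2 of 3 PRCre uterus arrays, so the size of these differences is uncertain. Kif2c, which takes microtubule ends apart, was not well above background on any PRCre uterus array and read at least 1.86-fold higher in ERBOE uterus, with a measured mean of -3.11 against -4.74. This bound sets the ERBOE mean against the lowest signal called above background, or the spot's own signal where that was higher.

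At centromeres and kinetochores, Cenpa, the histone variant that marks centromeres, read -0.61, 0.00 and 0.57 on the ERBOE uterus arrays, against -0.86, -1.50 and -0.57 on the PRCre uterus arrays (0.97 ± 0.58). Cenpe, a kinetochore motor, read 1.63, 1.93 and 2.86 on the ERBOE uterus arrays, against 0.23, 0.22 and 1.06 on the PRCre uterus arrays (1.63 ± 0.72). Ndc80, which binds microtubules at the kinetochore, read -3.18, -2.46 and -1.45 on the ERBOE uterus arrays, against -2.96, -3.26 and -3.48 on the PRCre uterus arrays (0.87 ± 0.84). Cenpe kept the groups apart, and Cenpa and Ndc80 did not. The partners of Ndc80 in its complex differed by 0.79 ± 0.79 (Nuf2), 1.65 ± 0.86 (Spc24) and 1.37 ± 0.83 (Spc25), and Cenpf by 2.07 ± 0.83.

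Cdc20 and Ube2c belong to the machinery that marks securin and cyclins for destruction at anaphase. Cdc20 read 1.85, 2.48 and 3.26 on the ERBOE uterus arrays, against -0.17, 0.35 and 1.28 on the PRCre uterus arrays, and Ube2c read 1.31, 1.64 and 2.58 on the ERBOE uterus arrays, against 0.06, -0.70 and 0.24 on the PRCre uterus arrays. The groups stood apart in both, with differences of 2.04 ± 0.74 and 1.98 ± 0.80. Espl1, the separase that cuts cohesin, differed by 1.67 ± 0.62, with 2 of 3 PRCre uterus arrays well above background. Pttg1, its inhibitor securin, read 2.80, 3.09 and 2.70 on the ERBOE uterus arrays, against 3.05, 3.02 and 3.02 on the PRCre uterus arrays, levels that overlapped (-0.17 ± 0.17).

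Tpx2 activates Aurora A and seeds spindle microtubules, and Prc1 bundles microtubules of the midzone. Tpx2 read -0.63, -0.04 and 0.99 on the ERBOE uterus arrays, against -3.76, -1.97 and -0.87 on the PRCre uterus arrays (2.31 ± 0.88). It was well above background on 17 of 18 arrays but on 2 of 3 PRCre uterus arrays, so the size of this difference is uncertain. Prc1 read 1.58, 2.20 and 3.16 on the ERBOE uterus arrays, against -0.61, 0.23 and 1.37 on the PRCre uterus arrays (1.98 ± 0.80). Both kept the groups apart, as did Nusap1 (1.55 ± 0.77), and Hmmr differed by 0.12 ± 0.25. Against 4.1% of all features higher, an unadjusted p under 0.05 was reached by all 3 cytokinesis genes. They are Ect2, which is needed to form the cleavage furrow, its partner Racgap1 of the centralspindlin complex, and Anln, a scaffold of the contractile ring. Ect2 read -0.42, 0.34 and 1.30 on the ERBOE uterus arrays, against -2.29, -1.99 and -1.40 on the PRCre uterus arrays, a difference of 2.30 ± 0.75 (unadjusted p = 0.00797, adjusted p = 0.394 by limma). Racgap1 read 0.39, 0.70 and 1.61 on the ERBOE uterus arrays, against -0.78, -0.82 and -0.59 on the PRCre uterus arrays, a difference of 1.63 ± 0.53 (unadjusted p = 0.0079, adjusted p = 0.394 by limma). Neither gene had an overlapping array, and Anln differed by 1.77 ± 0.69 with groups apart. The transcription factors Foxm1 and Mybl2 activate many of these genes in late cycle. Foxm1 read -1.53, -0.03 and 0.36 on the ERBOE uterus arrays, against -3.42, -1.38 and -1.28 on the PRCre uterus arrays (1.62 ± 0.69), and Mybl2 read -0.53, 0.24 and 1.62 on the ERBOE uterus arrays, against -0.83, -0.05 and -0.54 on the PRCre uterus arrays (0.92 ± 0.61). PRCre arrays 2 and 3 lay within the ERBOE range for Foxm1, and PRCre array 2 did for Mybl2. Foxm1 was well above background on 2 of 3 PRCre uterus arrays.

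**Figure D2:**
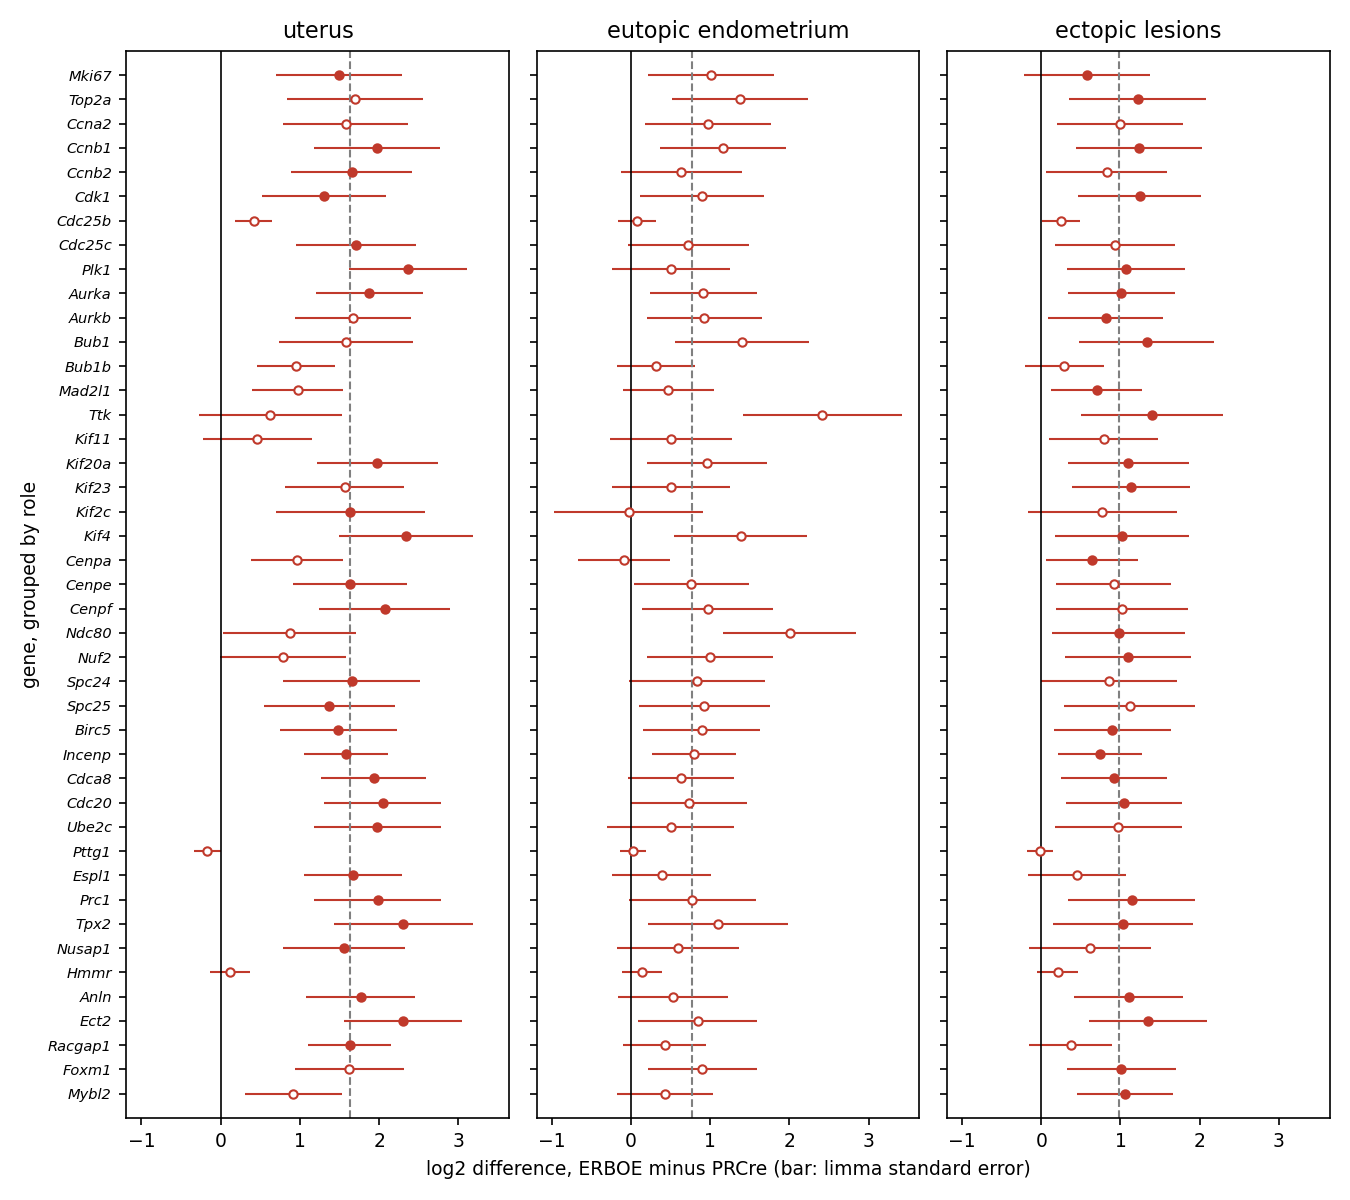
Log2 difference of ERBOE minus PRCre (x axis) for each of the 43 genes (y axis, grouped by role) in uterus, eutopic endometrium and ectopic lesions. Bars are limma standard errors from the fit over all 18 arrays, with a spread shared by the 6 groups. Groups held 3 arrays, or 2 for Ttk in PRCre and Kif11 in ERBOE eutopic endometrium. Filled points are genes whose groups do not overlap (26, 0 and 26 genes), and dashed lines are the medians, 1.63, 0.77 and 0.98.

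Within slides the median uterine difference of the genes was 1.79 on slide 1, 1.71 on slide 2 and 1.31 on slide 3, with 41, 42 and 37 of the 43 genes higher in ERBOE. With 1 array left out at a time it lay between 1.24 and 1.94. With the slide as a block it was 1.63. Same-numbered uterus arrays shared a slide and deviated together, and with the replicate number as a block the smallest adjusted p of the list was 0.22, against 0.391 without it.

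Marker lists also differed in level between the genotypes in uterus. Of 14 epithelial markers, 13 were higher in ERBOE, with a median difference of 1.56 against -0.12 for all features. At an unadjusted p under 0.05, 10 of the markers were higher, against 4.1% of all features, and 0 passed. Their summed signal was 296.2 to 567.7 on the ERBOE arrays, against 145.5 to 221.5 on the PRCre arrays (in multiples of the array's 75th percentile). Of 9 oestrogen-induced uterine genes 8 were higher, with a median of 1.56 and array medians of 5.35 to 6.54 in ERBOE, against 3.44 to 5.15 in PRCre. Stromal markers summed to 461.2 to 544.9 in ERBOE, against 588.1 to 967.5 in PRCre, and natural killer cell markers to 3.34 to 4.71, against 7.37 to 11.3. Neutrophil markers were lower for 6 of 6 (median -1.45), and summed to 83.6 to 95.1 in ERBOE, against 104 to 155 in PRCre. All 8 endothelial markers (median -0.59) and all 8 T cell markers (-0.40) were also lower, with summed ranges that overlapped (10.5 to 14.1 in ERBOE, against 8.42 to 29.2 in PRCre, for endothelium, and 7.11 to 9.19, against 7.29 to 11.1, for T cells). Cd8a was below background on all ERBOE uterus arrays. None of the 14 epithelial, 10 stromal, 8 natural killer cell, 6 neutrophil and 8 endothelial markers was below background on all arrays of either group. The part of these in the difference of the mitosis genes was not tested.

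In ectopic lesions the mitosis genes again read higher in ERBOE than in PRCre, by a median of 0.98 against -0.05 for all features tested, on pools that the uterine comparison does not share. The difference was above 0 for 42 of 43 genes, and Pttg1 (-0.02) was again the exception. No gene passed the test, nor did any of all features (0.0%), and 0 of the 43 had an unadjusted p under 0.05, against 2.14% of all features higher. The p-values here rest on the spread shared by all groups, which includes the wider scatter of the eutopic arrays. For 26 of the 43 the groups did not overlap, against 5.16% of all features. Both in uterus and in lesions, 15 of the 43 were higher without overlap, against 0.526% of all features. These 15 were 57.7% of the 26 in lesions, while in uterus 26 of all 43 genes were higher without overlap. The 26 genes of the lesions were thus no more often apart in uterus than the 43 as a whole. The 15 were Mki67, Ccnb1, Cdk1, Cdc20, Plk1, Aurka, Kif20a, Kif4, Birc5, Incenp, Cdca8, Prc1, Tpx2, Anln and Ect2.

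The genes with the smallest p in lesions were Ect2, Mybl2 and Anln. Ect2 read -0.20, 0.42 and -0.09 on the ERBOE lesion arrays, against -1.01, -2.21 and -0.69 on the PRCre lesion arrays (1.35 ± 0.75, unadjusted p = 0.0929, adjusted p = 0.994 by limma). Mybl2 read 0.56, 1.04 and 0.62 on the ERBOE lesion arrays, against -0.34, -0.36 and -0.25 on the PRCre lesion arrays (1.06 ± 0.61, unadjusted p = 0.104, adjusted p = 0.994 by limma). Anln read 0.44, 1.35 and 0.53 on the ERBOE lesion arrays, against -0.15, -0.82 and -0.01 on the PRCre lesion arrays (1.10 ± 0.69, unadjusted p = 0.132, adjusted p = 0.994 by limma). Every ERBOE array lay above every PRCre array in these 3 genes.

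Among markers and cyclins the level of ERBOE lesion array 2 stood out. Mki67 read 1.93, 3.09 and 1.85 on the ERBOE lesion arrays, against 1.59, 1.81 and 1.75 on the PRCre lesion arrays (0.57 ± 0.79), with ERBOE arrays 1 and 3 close to the PRCre range. Top2a read 1.23, 2.32 and 1.29 on the ERBOE lesion arrays, against 0.39, -0.04 and 0.84 on the PRCre lesion arrays (1.22 ± 0.86). Cdk1 read -0.73, 0.28 and -0.69 on the ERBOE lesion arrays, against -1.22, -2.31 and -1.33 on the PRCre lesion arrays (1.24 ± 0.78), and the groups of all 3 genes stood apart. Ccnb1 read 0.62, 1.79 and 0.66 on the ERBOE lesion arrays, against -0.13, -0.72 and 0.20 on the PRCre lesion arrays (1.24 ± 0.80), Ccnb2 read 1.35, 2.18 and 1.53 on the ERBOE lesion arrays, against 0.45, 0.31 and 1.83 on the PRCre lesion arrays (0.83 ± 0.76), and Ccna2 read 0.65, 1.55 and 0.39 on the ERBOE lesion arrays, against -0.22, -0.59 and 0.41 on the PRCre lesion arrays (1.00 ± 0.79). PRCre array 3 lay within or at the ERBOE range for the last 2 of these cyclins.

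The kinases and the passenger protein Birc5 also had ERBOE array 2 on top. Plk1 read 1.49, 2.16 and 1.72 on the ERBOE lesion arrays, against 0.81, 0.13 and 1.23 on the PRCre lesion arrays (1.07 ± 0.74). Aurka read 1.17, 1.87 and 1.21 on the ERBOE lesion arrays, against 0.46, -0.02 and 0.78 on the PRCre lesion arrays (1.01 ± 0.68), and Aurkb read -2.0, -1.19 and -2.28 on the ERBOE lesion arrays, against -2.58, -2.93 and -2.41 on the PRCre lesion arrays (0.81 ± 0.73). The groups of these kinases did not overlap. Birc5 read 2.20, 3.41 and 2.48 on the ERBOE lesion arrays, against 1.83, 1.56 and 2.01 on the PRCre lesion arrays (0.90 ± 0.74), and its groups also stood apart.

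Checkpoint genes had a median difference of 1.02 in lesions. Bub1 read -1.65, -0.51 and -1.21 on the ERBOE lesion arrays, against -2.23, -3.06 and -2.06 on the PRCre lesion arrays (1.33 ± 0.85), and Ttk read -2.73, -1.32 and -2.58 on the ERBOE lesion arrays, against -3.54, -3.88 and -3.39 on the PRCre lesion arrays (1.39 ± 0.90). Mad2l1 read 0.68, 1.01 and 0.52 on the ERBOE lesion arrays, against -0.22, -0.12 and 0.45 on the PRCre lesion arrays (0.70 ± 0.57). No array of these 3 genes crossed into the other group. Kif11 read -2.95, -1.83 and -3.42 on the ERBOE lesion arrays, against -3.80, -3.47 and -3.30 on the PRCre lesion arrays (0.79 ± 0.69) and overlapped by 1 PRCre array, whereas Kif20a read 0.06, 1.17 and 0.03 on the ERBOE lesion arrays, against -0.75, -1.24 and -0.04 on the PRCre lesion arrays (1.10 ± 0.76) and did not.

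Cenpa read -0.18, 0.53 and -0.41 on the ERBOE lesion arrays, against -0.58, -0.90 and -0.49 on the PRCre lesion arrays (0.64 ± 0.58). Cenpe read 1.22, 2.24 and 1.22 on the ERBOE lesion arrays, against 0.54, 0.15 and 1.25 on the PRCre lesion arrays (0.91 ± 0.72), and Ndc80 read -2.53, -1.59 and -2.67 on the ERBOE lesion arrays, against -3.04, -3.87 and -2.81 on the PRCre lesion arrays (0.98 ± 0.84). Cenpe alone among these 3 overlapped. Cdc20 read 2.02, 2.66 and 2.03 on the ERBOE lesion arrays, against 1.23, 0.43 and 1.92 on the PRCre lesion arrays (1.04 ± 0.74) and Ube2c read 1.11, 1.68 and 1.04 on the ERBOE lesion arrays, against 0.06, -0.31 and 1.16 on the PRCre lesion arrays (0.97 ± 0.80), where PRCre array 3 lay above the 2 lower ERBOE arrays for Ube2c. Tpx2 read -0.60, 0.34 and -0.60 on the ERBOE lesion arrays, against -1.43, -1.78 and -0.75 on the PRCre lesion arrays (1.04 ± 0.88), Prc1 read 1.57, 2.53 and 1.49 on the ERBOE lesion arrays, against 0.70, 0.18 and 1.28 on the PRCre lesion arrays (1.14 ± 0.80), and Foxm1 read -0.15, 0.33 and -0.64 on the ERBOE lesion arrays, against -0.79, -1.40 and -1.29 on the PRCre lesion arrays (1.01 ± 0.69). These 3 genes kept the groups apart.

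Within slides the lesion difference had a median of 1.11 on slide 1 and 0.88 on slide 2, with 42 and 43 of 43 genes higher, and slide 3 held no PRCre lesion. Leaving out 1 array at a time gave 0.67 to 1.24. Adipocyte markers had array medians of 1.77 to 2.53 in ERBOE lesions, against -0.67 to 2.76 in PRCre lesions, and summed to 165.5 to 212.9, against 24.8 to 169.9. B cell markers had array medians of -3.95 to -1.81, against -2.46 to 0.19, and summed to 1.85 to 3.59, against 4.12 to 11.7. Natural killer cell markers summed to 2.06 to 6.63, against 3.97 to 8.89, with 8 of 8 lower and 4 at an unadjusted p under 0.05, against 765 of all 33455 features lower. Erythroid markers summed to 134 to 381, against 50.2 to 131. None of these markers was below background on all arrays of either group. Epithelial markers had a median difference of -0.10, with 6 of 14 higher. The part of these lists in the lesion difference was not tested.

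Eutopic endometrium gave a median difference of 0.77 in favour of ERBOE, against -0.01 for all features, but its arrays did not hold together. The difference was above 0 for 41 of 43 genes, with Cenpa (-0.09) and Kif2c (-0.03) the exceptions. No gene passed, nor did any of all features (0.0%). Ttk and Ndc80, 2 of the 43, had an unadjusted p under 0.05, against 1.74% of all features higher, and 0 of the 43 had groups without overlap over all 6 arrays, against 4.99% of all features. The p-values here rest on the spread shared by all groups, which includes the lesion arrays with their smaller scatter.

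Array 3 was the highest of its group for nearly every gene. Mki67 read -0.28, 1.39 and 3.56 on the ERBOE eutopic arrays, against -0.12, -0.09 and 1.84 on the PRCre eutopic arrays (1.01 ± 0.79). Top2a read -0.88, 0.33 and 2.67 on the ERBOE eutopic arrays, against -1.48, -1.35 and 0.83 on the PRCre eutopic arrays (1.38 ± 0.86), and Plk1 read -0.73, -0.08 and 2.18 on the ERBOE eutopic arrays, against -0.72, -0.81 and 1.37 on the PRCre eutopic arrays (0.51 ± 0.74). ERBOE array 3 was the highest in each, PRCre array 3 came next, and the 4 other arrays were lower. Ccna2 read -1.65, -0.34 and 1.86 on the ERBOE eutopic arrays, against -1.79, -1.73 and 0.49 on the PRCre eutopic arrays (0.97 ± 0.79). Ccnb1 read -1.42, -0.42 and 1.79 on the ERBOE eutopic arrays, against -2.09, -1.90 and 0.46 on the PRCre eutopic arrays (1.16 ± 0.80), and Ccnb2 read -0.78, 0.40 and 2.25 on the ERBOE eutopic arrays, against -1.06, -0.64 and 1.66 on the PRCre eutopic arrays (0.63 ± 0.76). Cdk1 had the same shape, with -3.24, -2.23 and 0.31 on the ERBOE eutopic arrays, against -2.90, -3.65 and -1.31 on the PRCre eutopic arrays (0.90 ± 0.78). Aurka read -0.79, 0.02 and 2.10 on the ERBOE eutopic arrays, against -1.11, -1.13 and 0.85 on the PRCre eutopic arrays (0.91 ± 0.68), and Aurkb read -4.24, -2.92 and -0.93 on the ERBOE eutopic arrays, against -4.34, -3.79 and -2.73 on the PRCre eutopic arrays (0.92 ± 0.73).

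For 2 genes a spot called an outlier by the scanner software was dropped from a high array, and this bears on their values. Ttk had no value on PRCre array 3 and read -4.53, -3.93 and -1.49 on the ERBOE eutopic arrays, against -6.74 and -4.73 on the PRCre eutopic arrays (2.42 ± 1.00, unadjusted p = 0.0311, adjusted p = 1.0 by limma, n = 3 against 2). With outlier spots kept the Ttk difference was 0.64. Kif11 had no value on ERBOE array 3 and read -5.14 and -3.89 on the ERBOE eutopic arrays, against -6.11, -5.62 and -3.33 on the PRCre eutopic arrays (0.51 ± 0.77, n = 2 against 3). Ndc80 had all its values and read -3.80, -4.02 and -1.66 on the ERBOE eutopic arrays, against -6.57, -6.11 and -2.79 on the PRCre eutopic arrays (2.00 ± 0.84, unadjusted p = 0.0312, adjusted p = 1.0 by limma), with 1 of 3 PRCre arrays well above background.

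Of the checkpoint and kinetochore genes, Bub1 read -3.71, -3.04 and -0.44 on the ERBOE eutopic arrays, against -4.62, -4.81 and -1.97 on the PRCre eutopic arrays (1.40 ± 0.85). Mad2l1 read -0.30, -0.86 and 1.79 on the ERBOE eutopic arrays, against -1.19, -0.20 and 0.59 on the PRCre eutopic arrays (0.47 ± 0.57), and Cenpe read -0.93, 0.19 and 2.30 on the ERBOE eutopic arrays, against -1.11, -0.77 and 1.14 on the PRCre eutopic arrays (0.76 ± 0.72). Array 3 was again the top array of both groups. Cenpa read -2.50, -1.37 and -0.04 on the ERBOE eutopic arrays, against -1.84, -1.77 and -0.03 on the PRCre eutopic arrays (-0.09 ± 0.58), with array 3 at nearly the same level in both genotypes. Kif2c was not well above background on any PRCre eutopic array, and its measured means of -5.60 and -5.57 give no fold.

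Birc5 read 0.20, 1.18 and 3.32 on the ERBOE eutopic arrays, against -0.33, 0.12 and 2.22 on the PRCre eutopic arrays (0.90 ± 0.74), and Cdc20 read -0.45, 0.96 and 2.59 on the ERBOE eutopic arrays, against -0.29, -0.58 and 1.77 on the PRCre eutopic arrays (0.73 ± 0.74). Ube2c read -1.62, -0.45 and 1.99 on the ERBOE eutopic arrays, against -1.53, -1.15 and 1.10 on the PRCre eutopic arrays (0.50 ± 0.80), and Kif20a read -2.01, -0.68 and 0.82 on the ERBOE eutopic arrays, against -2.50, -2.12 and -0.13 on the PRCre eutopic arrays (0.96 ± 0.76). None of these kept the groups apart. Tpx2 read -2.96, -1.63 and 0.38 on the ERBOE eutopic arrays, against -3.52, -3.12 and -0.86 on the PRCre eutopic arrays (1.09 ± 0.88), and Prc1 read -0.71, 0.33 and 2.72 on the ERBOE eutopic arrays, against -0.86, -0.49 and 1.36 on the PRCre eutopic arrays (0.77 ± 0.80). Foxm1 read -2.11, -0.94 and 0.25 on the ERBOE eutopic arrays, against -1.90, -2.67 and -0.94 on the PRCre eutopic arrays (0.90 ± 0.69), and Mybl2 read -1.06, -0.90 and 1.56 on the ERBOE eutopic arrays, against -1.07, -0.50 and -0.12 on the PRCre eutopic arrays (0.43 ± 0.61). Mybl2 had a single high array, ERBOE array 3.

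The slides gave opposite directions in eutopic endometrium, and slide and pool cannot be told apart here. Within slide 2, which held ERBOE array 1 and PRCre array 3, the median difference was -1.91 and 1 of 42 genes was higher in ERBOE. Within slide 3, which held ERBOE arrays 2 and 3 and PRCre arrays 1 and 2, it was 2.16 and 42 of 43 were higher. Leaving out ERBOE array 3 gave -0.06, leaving out ERBOE array 1 gave 1.49, and leaving out PRCre array 1, 2 or 3 gave 0.38, 0.48 and 1.45. Oestrogen-induced genes had array medians of 1.88 to 5.52 in ERBOE eutopic endometrium, against 1.94 to 6.48 in PRCre. The part of these genes in the spread of the mitosis genes was not tested.

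**Figure D3:**
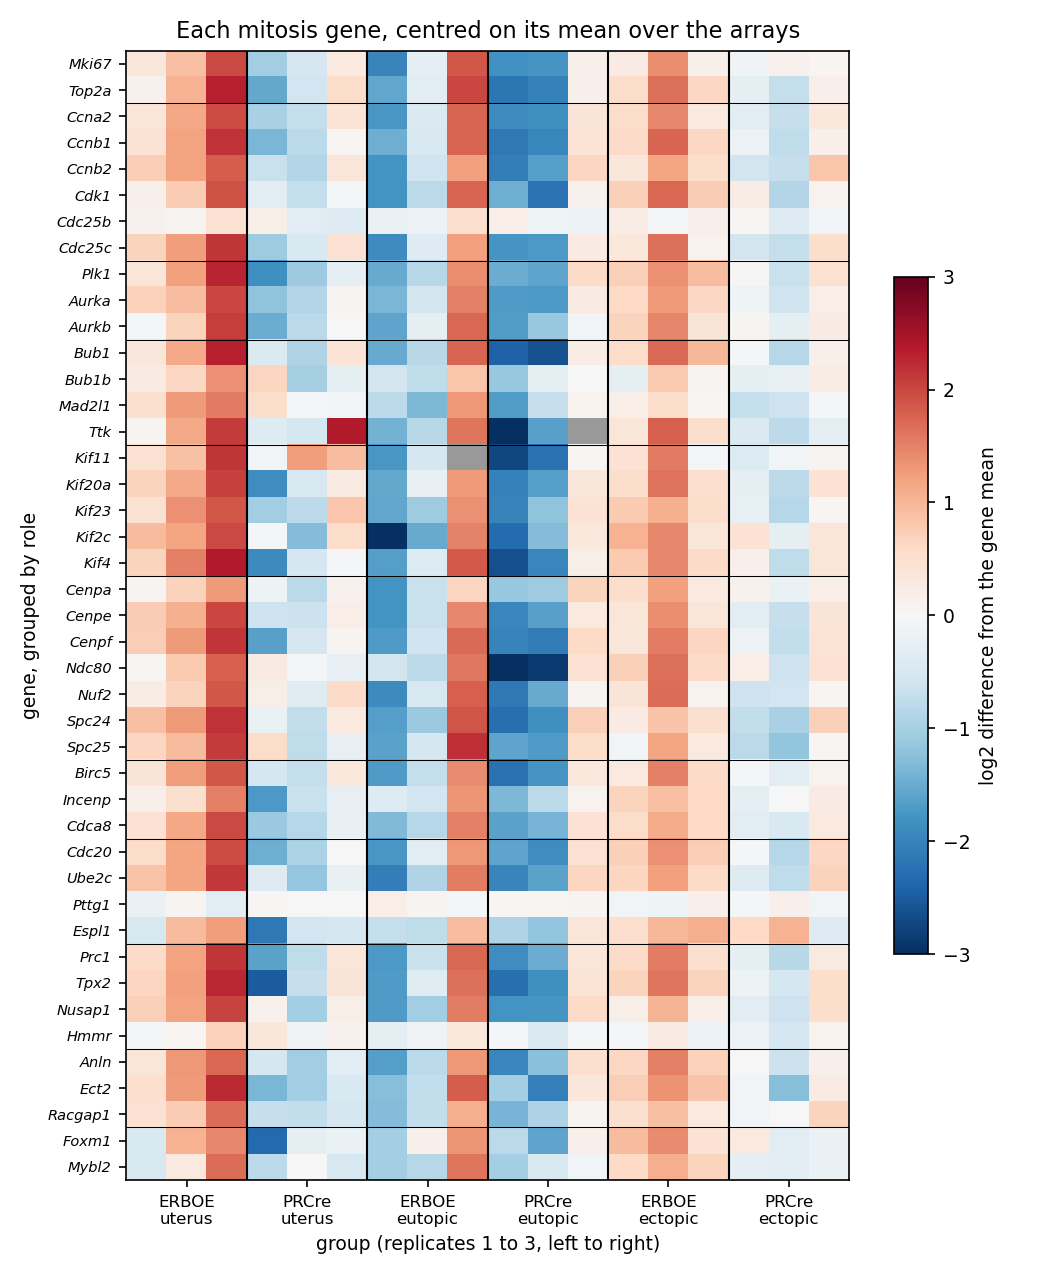
Level of each of the 43 genes (y axis, grouped by role) on the 18 arrays (x axis, replicates 1 to 3 of each group from left to right), as log2 difference from the gene's mean over arrays. Grey cells have no value (Ttk on PRCre eutopic array 3, Kif11 on ERBOE eutopic array 3). ERBOE uterus array 3 is the highest for 39 genes, and Pttg1, Hmmr and Cdc25b are nearly flat.

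The comparisons between tissues reuse the arrays described above, and each shares a group with others. In ERBOE, lesions minus eutopic endometrium gave a median of 1.04 with 42 of 43 genes higher, 3 at an unadjusted p under 0.05 against 4.92% of all features higher, and 0 passing against 0.616% of all features. Those 3 were Kif11 (1.78 ± 0.77, unadjusted p = 0.0376, adjusted p = 0.435 by limma, with 2 eutopic arrays), Cenpa (1.29 ± 0.58, unadjusted p = 0.0429, adjusted p = 0.455 by limma) and Kif2c (2.07 ± 0.94, unadjusted p = 0.0449, adjusted p = 0.46 by limma). Kif2c was well above background on 2 of 3 lesion arrays and 1 of 3 eutopic arrays in ERBOE, so the size of its difference is uncertain. In PRCre the same contrast gave 0.87 with 40 of 43 higher, 2 at an unadjusted p under 0.05 against 2.52% of all features higher, and 0 passing against 0.00299% of all features. The 2 were Ndc80 (1.92 ± 0.84, unadjusted p = 0.0375, adjusted p = 1.0 by limma) and Kif11 (1.50 ± 0.69, unadjusted p = 0.0482, adjusted p = 1.0 by limma), followed by Ttk (2.13 ± 1.00, with 2 eutopic arrays), and Cdc25b, Pttg1 and Hmmr were the 3 below 0. Ndc80 and Kif11 were each well above background on 1 of 3 PRCre eutopic arrays. In ERBOE the value was 2.04 within slide 2 and 0.06 within slide 3, and in PRCre it was -0.70 within slide 2. With the slide as a block the medians were 0.61 in ERBOE and 0.45 in PRCre. In ERBOE the median was 0.35 without eutopic array 1 and 1.88 without eutopic array 3. In PRCre it was 0.49, 0.53 and 1.53 without eutopic array 1, 2 or 3.

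Eutopic endometrium minus uterus gave a median of -1.39 in ERBOE, where 1 of 43 genes, Pttg1 (0.22), was above 0. At an unadjusted p under 0.05, 13 genes were lower, against 1.4% of all features lower, and 0 passed, as for all features (0.0%). The smallest p values were those of Kif11 (-2.29 ± 0.77, with 2 eutopic arrays), Kif2c (-2.49 ± 0.94) and Racgap1 (-1.29 ± 0.53), with Kif2c well above background on 1 of 3 eutopic arrays. The median was -0.75 without ERBOE eutopic array 1 and -2.25 without ERBOE eutopic array 3. In PRCre the median was -0.48 with 7 of 43 above 0, 3 lower at an unadjusted p under 0.05 against 4.18% of all features lower, and 0 passing (0.0% of all features). The 3 were Kif11 (-2.34 ± 0.69), Ttk (-3.11 ± 1.00, with 2 eutopic arrays) and Ndc80 (-1.92 ± 0.84), where Kif11 and Ndc80 rest on eutopic signals of which 1 of 3 was well above background. Within slides the ERBOE value was -2.64 on slide 2 and -0.03 on slide 3, and the PRCre value was 1.01 on slide 2 and -0.68 on slide 3. Without PRCre eutopic array 3 the PRCre median was -1.27, and without PRCre eutopic array 1 it was -0.06.

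Lesions minus uterus gave the smallest shifts. In ERBOE the median was -0.38 with 7 of 43 above 0, 0 at an unadjusted p under 0.05 in either direction against 11.8% of all features, and 0 passing against 1.23%. Mad2l1 (-0.86 ± 0.57), Bub1b (-0.55 ± 0.49) and Nusap1 (-0.85 ± 0.77) had the smallest p. Leaving out 1 array at a time gave -0.75 (ERBOE uterus array 1), -0.66 (lesion array 2), -0.24 (lesion array 1), -0.20 (lesion array 3) and 0.00 (uterus array 3), and the 0.12 within slide 3 stood against -0.60 within each of slides 1 and 2. In PRCre the median was 0.25 with 33 of 43 above 0, 1 higher at an unadjusted p under 0.05 against 4.37% of all features higher, and 0 passing against 0.00897%. That gene was Espl1 (1.50 ± 0.62, unadjusted p = 0.0292, adjusted p = 0.355 by limma), and Incenp (0.86 ± 0.53) and Racgap1 (0.84 ± 0.53) followed. Without PRCre uterus array 3 the PRCre median was 0.62, and within slides 1 and 2 it was 0.16 and 0.28.

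**Figure D4:**
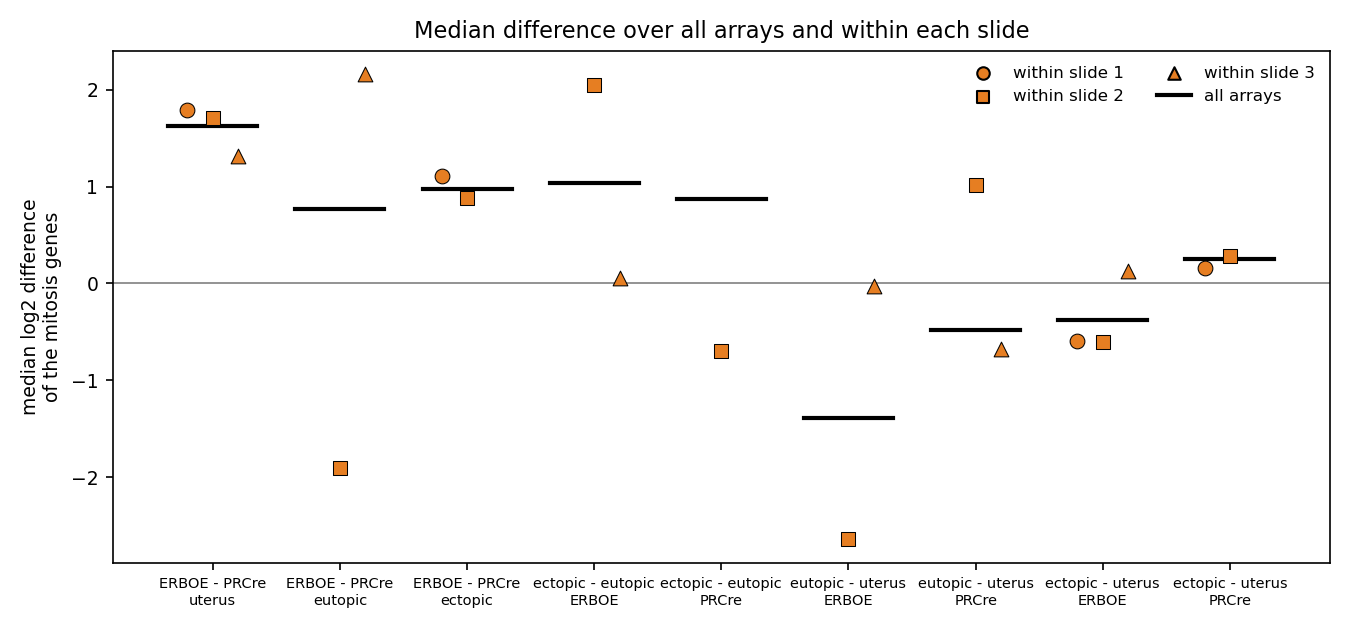
Median log2 difference over the 43 genes (y axis) in 9 comparisons (x axis), over all arrays (black lines) and within each slide that holds both groups (points, shape by slide). The uterus and lesion genotype differences are positive on every slide shown, from 0.88 to 1.79, and the eutopic difference is -1.91 on slide 2 and 2.16 on slide 3.

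Whether the genotype difference itself differed between tissues was tested as an interaction. No gene passed in any of the 3, as for all features (0.0%). The genotype difference in lesions minus that in uterus had a median of -0.74 with 7 of 43 above 0, and Racgap1 (-1.26 ± 0.75), Espl1 (-1.21 ± 0.88) and Plk1 (-1.30 ± 1.05) had the smallest p (smallest adjusted p = 0.81 by limma). With 1 array left out at a time this median lay between -1.07 and -0.36. Without ERBOE uterus array 3 it was -0.36, and without PRCre uterus array 1 it was -0.48. In eutopic endometrium minus that in uterus the median was -0.82 with 6 of 43 above 0, led by Plk1 (-1.86 ± 1.05), Racgap1 (-1.20 ± 0.75) and Espl1 (-1.28 ± 0.88, smallest adjusted p = 0.978). It was -0.22 and -1.72 without ERBOE eutopic array 1 or 3, -1.29 and -0.27 without PRCre eutopic array 1 or 3, and -0.46 without ERBOE uterus array 3. In lesions minus that in eutopic endometrium the median was 0.10 with 31 of 43 above 0, led by Cenpa (0.73 ± 0.82), Ndc80 (-1.03 ± 1.19) and Ttk (-1.02 ± 1.35, smallest adjusted p = 1.0). That median had no stable sign: leaving out 1 array gave -0.51 (ERBOE eutopic array 1) to 0.98 (ERBOE eutopic array 3). It was below 0 also without ERBOE eutopic array 2 (-0.043), PRCre eutopic array 3 (-0.47), ERBOE lesion array 2 (-0.15) or PRCre lesion array 2 (-0.075). The standard errors of these differences were mostly near 1 log2 unit.

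The genes moved together from array to array. Over the 18 arrays, 38 of the 43 had a Pearson r of at least 0.8 with the mean of the other members, and 36 did so on deviations from the group means. Of 17730 other genes 0.609% (108) reached that r with the mean of the members, and their median r was -0.04. These arrays share their groups, slides and scaling, so the values describe and do not test. Ccna2 (0.99), Ccnb1 (0.99), Cenpe (0.99) and Aurka (0.99) tracked the others most closely. The 5 below 0.8 were Pttg1 (-0.61), Cdc25b (0.48), Hmmr (0.65), Espl1 (0.73) and Bub1b (0.80 when rounded).

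The range over arrays of the other 40 genes was 2.49 to 6.01 log2 units, while Pttg1, Cdc25b and Hmmr stayed within 0.51, 0.89 and 1.20. Pttg1 read 2.70 to 3.21 on its bright probe, and its other probe was also flat, with an SD of 0.24 around -3.23 and an r of -0.55. For Hmmr the probes differed. The bright probe, at a mean of 0.53, had an SD of 0.29, and the dimmer probes at -2.59 and -3.09 had SDs of 1.25 and 1.42 and r values of 0.92 and 0.89. The dimmer Hmmr probes gave uterine differences of 1.37 and 1.29, against 0.12 for the bright one. What the bright Hmmr probe reads was not tested. Both Cdc25b probes were flat, with SDs of 0.26 and 0.38.

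**Figure D5:**
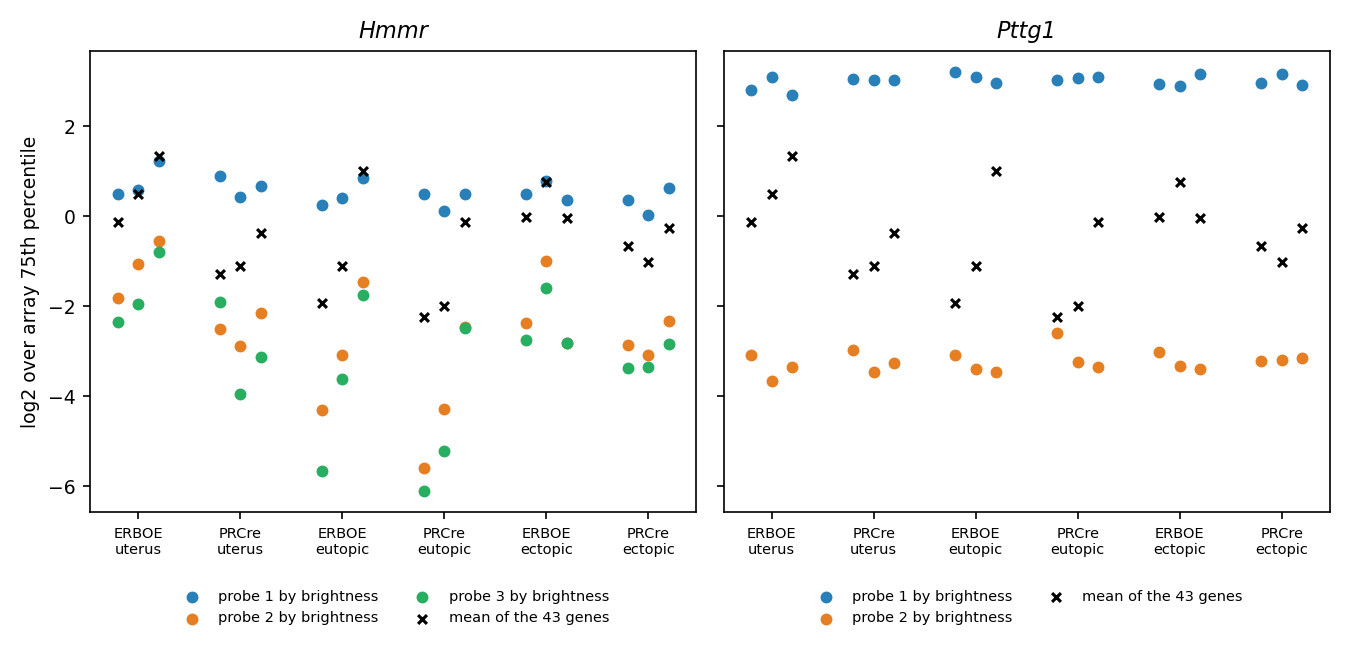
Level of each probe of Hmmr (left) and Pttg1 (right) on the 18 arrays by group, in log2 units relative to the array's 75th percentile, with the mean of the 43 genes as crosses. Points are arrays in the order of their replicate numbers. The bright Hmmr probe keeps within 1.20 units while its dimmer probes follow the mean, and both Pttg1 probes are flat.

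More than 1 probe was on the array for 23 of the 43 genes, and more than 1 could be used for 21. In uterus the probes of a gene gave the same direction for all 21. In lesions they differed for 1 gene, Cdc25b (0.25 and -0.11), and in eutopic endometrium for 2, Kif2c (-0.03 and 0.08) and Pttg1 (0.03 and -0.25).

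Among the 10 genes outside all lists whose levels were most like the mean of the 43 over the 18 arrays were Diaph3 (r 0.99), Neil3 (0.96), Ankle1 (0.96), Eme1 (0.95), H2ac4 (0.95), H1f5 (0.95), H1f1 (0.95), Ercc6l (0.94) and 2700099C18Rik (0.94). Diaph3, a formin that builds actin filaments, differed between the genotypes by 1.33 in uterus, 0.77 in eutopic endometrium and 1.09 in lesions. H2ac4, H1f5 and H1f1 encode histones.

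Other genes of the cell cycle are given by list. Of 77 other mitosis genes tested, 74 were higher in ERBOE uterus (median 1.03), 76 in ERBOE lesions (0.81) and 76 in ERBOE eutopic endometrium (0.81), and 0 passed in any. In uterus Arhgap11a (1.99 ± 0.52), Haspin (1.71 ± 0.52), Iqgap3 (2.92 ± 0.96) and Hjurp (0.75 ± 0.26) had the smallest p. In lesions Cenpq (0.85 ± 0.37) and Cenph (1.53 ± 0.69) led, and 42 of the 77 were higher without overlap between the genotypes (5.16% of all features). That count was 27 in uterus (6.05% of all features) and 3 in eutopic endometrium (4.99% of all features), so the eutopic share was near the background. The array median of this list had an r of 0.97 with the mean of the 43, each scaled over the arrays. The r values of the lists below were taken the same way.

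DNA replication genes, which act before mitosis, were higher in ERBOE for 35 of 39 in uterus (median 0.70), 38 of 39 in lesions (0.83) and 38 of 39 in eutopic endometrium (0.98), and 0 passed. Without overlap between the genotypes, 3 of the 39 were higher in uterus (6.05% of all features), a share near the background. That count was 26 in lesions (5.16% of all features) and 8 in eutopic endometrium (4.99% of all features). In uterus Gins3, of the replicative helicase, was lower (-0.71 ± 0.29) and Mcm10 (1.81 ± 0.78), Chaf1a (1.33 ± 0.61) and Chaf1b (1.37 ± 0.64) were higher, at unadjusted p values of 0.0293 to 0.0491. In eutopic endometrium Ccne1, the cyclin of entry into DNA synthesis, differed by 2.25 ± 0.74, and in lesions by 1.61 ± 0.74. The r of this list with the mitosis genes was 0.86.

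Of 22 cell-cycle inhibitors and quiescence genes, 12 were higher in uterus (median 0.04), 14 in lesions (0.09) and 9 in eutopic endometrium (-0.02), and 0 passed. Cdkn1c, the Cdk inhibitor p57, differed by -1.36 ± 0.55 in uterus, and Cdkn1b, the inhibitor p27, by -0.60 ± 0.28 in lesions and -0.62 ± 0.28 in eutopic endometrium. Their list had an r of 0.09 with the mitosis genes, against 0.27 for epithelial markers, 0.33 for oestrogen-induced genes, 0.16 for erythroid markers and -0.38 to 0.04 for the remaining cell type lists.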

How the data were processed

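Agilent 1-colour arrays measured RNA of 18 pools, 3 per group. The slide of an array was read from the file headers. Per the file headers, the authors deposited scanner output of Agilent Feature Extraction, in which the processed signal is an intensity per spot, already background-subtracted. The authors also deposited a log2 value table. Differences between its columns had an r of 1 with those of the scanner values on every array. It therefore carries the same signal up to offsets and scale. An r cannot show which scaling or centring was used.

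The processed signal of each array was divided by its 75th percentile and taken to log2, control spots and outlier spots were left out (2178 values missing among the features tested), and spots of 1 probe were averaged. Features well above background on at least 3 of 18 arrays were kept, with the brightest probe per gene, which left 33455 features. Names were updated through RefSeq tables of GRCm38.p6. A single limma 3.58.1 model in R 4.3.3 over all 6 groups gave the differences, and Benjamini-Hochberg adjustment ran over all features at 0.05. The procedure was also tested on simulated data. The number of arrays limits the precision.

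The 43 genes and the other lists were chosen with earlier results of these data known. The members with values per array stand for the roles. In each comparison the 3 members with the smallest p, those against the median and those whose probes disagree are also named, and of other lists up to 4 genes with the smallest p. Of the 10 genes most like the members, 1 is not reported here. Alternatives were normexp with an offset of 50 on the median signal and background (the mean signal was not used here), quantile normalization, no or a stricter filter, the mean over probes, the deposited log2 table, array weights, another variance model, the compared groups only, slide and replicate blocks, within-slide values and leaving out each array. Same-numbered arrays deviated together in uterus (r 0.388, 0.298 and 0.435, where the numbers coincide with slides) and in PRCre lesions and eutopic endometrium (r 0.323, 0.219 and 0.131). In the other comparisons not every pair had an r over 0.1.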

Additional observations from a re-analysis of the deposited data

How the results depend on the processing

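In all 12 comparisons 0 of the 43 genes passed under every alternative tried, and the replicate block changed no call (uterine median 1.63, smallest adjusted p = 0.22 by limma). Normexp gave genotype medians of 1.37 in uterus, 0.84 in lesions and 0.59 in eutopic endometrium. The eutopic genotype median was -1.91 within slide 2 (Ndc80 -1.01, Bub1 -1.74) and 2.16 within slide 3, and -0.06 to 1.49 with 1 array left out. Lesions minus eutopic endometrium in PRCre was -0.70 within slide 2 (Ndc80 -0.66, Kif11 -0.31). Eutopic endometrium minus uterus was -2.64 and -0.027 within slides 2 and 3 in ERBOE, and 1.01 within slide 2 in PRCre (Ndc80 0.47), where leaving out 1 array gave -1.27 to -0.062. Lesions minus uterus in PRCre gave 0.058 to 0.62 with 1 array left out. The genotype effect in lesions minus eutopic endometrium was 2.85 within slide 2. There Ndc80 was 1.79, and 0.15 with normexp, and Ttk was 0.22 with normexp, 0.43 over all probes, 0.74 in the deposited table and 0.75 with outlier spots kept. The genotype effect in eutopic endometrium minus uterus was -3.79 and 0.79 within slides 2 and 3 (Racgap1 0.17 within slide 3). Within-slide values rest on few arrays, and the cause of these shifts was not tested. Chosen after seeing the data, leaving out the slide 1 arrays gave 1.55 in uterus and 0.94 in lesions, and leaving out Pttg1, Hmmr and Cdc25b gave 1.63, 1.00 in lesions and 0.82 in eutopic endometrium.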
